A study of Mus musculus with 30 samples.

Results

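The NRF2 antioxidant genes described here are 10 genes named by symbol: *Nfe2l2*, which encodes the transcription factor NRF2, *Keap1*, which encodes its inhibitor, and 8 genes that NRF2 is known to act on, *Nqo1*, *Hmox1*, *Gclc*, *Gclm*, *Txnrd1*, *Txn1*, *Srxn1* and *Slc7a11*. They are 10 of the 55416 genes in the count table, and all 10 passed the filter on low counts in every comparison. *Nqo1* was taken up for its rise in knockout callus at 10 days post fracture (-dpf), so that difference is given as a description and was not tested. The other members were not chosen by a measured value, although the list was drawn up with earlier results of these data known.

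RNA from the fractured tibia was sequenced in 30 mice. It came from bone dissected around the fracture site at 3-dpf, and at the later days from the fracture callus, the tissue that bridges a broken bone. Below, callus stands for both. Each had received a closed, non-stabilized fracture of the left tibia at an age of 7 to 12 weeks. P-Apex1KO mice carried Prrx1-Cre and conditional *Apex1* alleles on both chromosomes (Apex1 C/C), and the WT group was made of their littermates, which could carry Prrx1-Cre with 1 conditional allele (Prrx1-Cre+/-;Apex1 C/+) or conditional alleles without Cre (Apex1 C/C, Apex1 C/+), on an allele backcrossed to C57Bl/6 J. Prrx1-Cre acts in cells that descend from limb bud mesenchyme, so blood, immune and endothelial cells are not its targets. *Apex1* was not measured by cell type here. There were 4 WT and 4 P-Apex1KO mice at 3-dpf, 5 and 3 at 6-dpf, 4 and 3 at 10-dpf and 4 and 3 at 14-dpf. Males and females were present in 7 of the 8 groups, but at 14-dpf all 3 P-Apex1KO mice were female and only 1 WT mouse was. Sex was a term of every main model, so at 14-dpf the genotype difference rested on that 1 WT female. Values from a model without sex are given beside the members and genes named at that day.

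NRF2 is held in the cytoplasm by KEAP1, which presents it to a CUL3 ubiquitin ligase for degradation. Oxidants and electrophiles modify cysteines of KEAP1, NRF2 then builds up, enters the nucleus, pairs with a small MAF protein and binds antioxidant response elements near its target genes. These targets make glutathione, reduce thioredoxin and peroxiredoxins, detoxify quinones and break down haem. A callus passes through a haematoma and inflammation, with many macrophages, before cartilage and bone form. APEX1, also known as REF-1, is a DNA repair endonuclease that also helps thioredoxin to keep the cysteines of transcription factors reduced.

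The total count per library ran from 18334389 to 43111491. *Apex1* was the check of the labels. At 3-dpf it was 26.5 to 33.1 CPM (counts scaled to the size of each library) in WT and 18.4, 29.1, 27.6 and 34.6 CPM in the libraries labelled P-Apex1KO, so the groups overlapped and the labels were not borne out by this gene at that day. The log2 fold change of *Apex1* was -0.67 at 6-dpf (SE 0.11, adjusted p = 0.0071), -0.65 at 10-dpf (SE 0.13, adjusted p = 0.0278, without the sex term -0.60 and 0.0791) and -0.29 at 14-dpf (SE 0.19, adjusted p = 0.367, without the sex term -0.55 and 0.0187), by the quasi-likelihood test of edgeR, with p adjusted over all genes after Benjamini and Hochberg. All P-Apex1KO mice lay below all WT mice at these 3 days, but the call at 10-dpf was also lost in 4 of 7 fits that left out 1 mouse (P-Apex1KO replicate 1, 2 or 3 or WT replicate 1, highest adjusted p 0.104). Marker genes of chondrocytes, osteoblasts and osteoclasts had counts in every group, and only *Matn1* of the chondrocyte list was at 0 counts in any mouse, in 3 of them.

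Because NRF2 acts through the antioxidant response element, its letters were looked for from 5000 bases before to 2000 bases after the start of the canonical transcript of each protein-coding gene, on both strands of GRCm39. The general form (TGAC, any 3 bases, GCA) stood in the window of all 10 members, 21 times, but also in 47.7% of 21757 windows. The narrower form (TGA, any base, TC, any base, GCA), a part of whose matches are also matches of the first form, stood in the windows of 5 members (*Nqo1*, *Hmox1*, *Gclc*, *Txn1* and *Slc7a11*) and in 17.9% of all windows. Shown are matches before the start of the 5 members that were higher in P-Apex1KO callus at 14-dpf, with the 10 matching letters in capitals and 8 bases on each side, read 5′ to 3′ on the strand that holds the motif. The *Nqo1* match lay 330 bases before the start (chr8:108130256-108130281, minus strand), that of *Hmox1* 3855 bases before it (chr8:75816369-75816394, minus strand), those of *Gclc* 3762 and 1989 bases before it (chr9:77658018-77658043 and chr9:77659791-77659816, minus strand) and that of *Slc7a11* 3458 bases before it (chr3:50401513-50401538, plus strand). *Gclm* held only the general form, here 1833 bases before its start (chr3:122037276-122037301, plus strand).
Nqo1: agtcacagTGAGTCGGCAaaatttga
Hmox1: acagagggTGACTCAGCAaaatctgt
Gclc, far: cctcaccgTGACTCAGCActctgcgc
Gclc, near: cacctgcaTGACTCAGCAggacagct
Slc7a11: ggtagtgtTGAGTCTGCAgtcagaat
Gclm: actcacaaTGACTTTGCAgccaagtt
The *Hmox1* and both *Gclc* matches hold the same 10 letters, and *Nqo1* and *Slc7a11* differ from them. All of these sites lie upstream of their gene, in no exon or intron of it. A match of letters is a description of the window and was not tested as a binding site.

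Levels between the members were compared per kilobase of the union of their exons. In WT mice at 3-dpf, *Hmox1*, whose product cleaves haem, stood at 188 CPM per kilobase and *Txn1*, thioredoxin, at 80.0. *Txnrd1*, the reductase that recharges thioredoxin, followed with 24.5 and *Nfe2l2* with 18.6. *Gclm* and *Gclc*, the modifier and catalytic subunits of the enzyme that sets the rate of glutathione synthesis, reached 11.7 and 7.36, with *Keap1* between them at 9.59. *Srxn1*, the sulfiredoxin that repairs over-oxidized peroxiredoxins, stood at 5.61, *Nqo1*, a quinone reductase, at 2.95, and *Slc7a11*, the cystine importer that feeds glutathione synthesis, was lowest at 1.18. With the length of the canonical transcript in place of the exon union, *Txn1* (223) and *Hmox1* (210) changed places, and *Keap1* (17.0) came before *Gclm* (14.7). In WT mice at 14-dpf *Hmox1* was still first with 46.4 CPM per kilobase of exon union and *Slc7a11* last with 0.452.

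*Nqo1* was the member with the largest genotype difference at 10-dpf. Its level in WT mice was 6.83, 9.59, 9.14 and 6.85 CPM at 3-dpf, 14.8, 23.5, 19.9, 18.6 and 22.1 at 6-dpf, 6.74, 7.17, 11.6 and 9.19 at 10-dpf and 5.21, 4.36, 5.59 and 5.86 at 14-dpf. In P-Apex1KO mice it was 10.3, 11.1, 11.7 and 8.02 CPM at 3-dpf, 16.8, 17.7 and 11.7 at 6-dpf, 21.2, 26.0 and 30.3 at 10-dpf and 13.4, 12.0 and 15.4 at 14-dpf. Among these values WT callus held most *Nqo1* at 6-dpf, and P-Apex1KO callus at 10-dpf. Sample names change between 6- and 10-dpf, so a change of batch cannot be told apart from time in this order, which was not tested. At 10- and 14-dpf every P-Apex1KO mouse lay above every WT mouse. The mean at 10-dpf was 25.8 ± 4.53 CPM (SD, n = 3) in P-Apex1KO mice and 8.68 ± 2.23 CPM (SD, n = 4) in WT mice, a log2 fold change of 1.51 (SE 0.12), given with no test. At 14-dpf, in other mice, the means were 5.26 ± 0.652 CPM (SD, n = 4) and 13.6 ± 1.68 CPM (SD, n = 3), and *Nqo1* rose by 1.41 on the log2 scale (SE 0.26, adjusted p = 0.0136, edgeR quasi-likelihood test), with the same log2 fold change of 1.41 and an adjusted p of 0.00024 when sex was left out of the model.

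**Figure D1:**
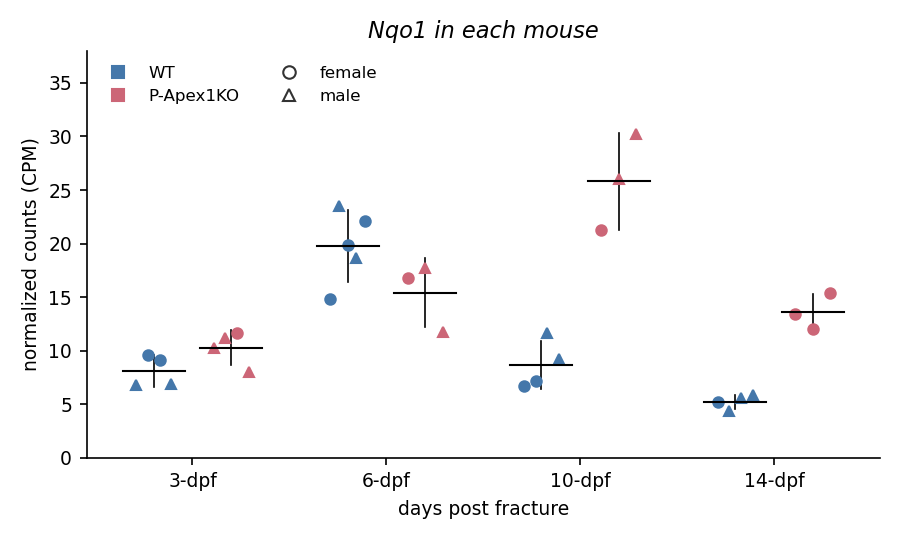
*Nqo1* in CPM (linear axis from 0) against the day post fracture, with 1 point for each of the 30 mice, the group mean and SD as lines, colour for genotype and marker shape for sex. The 3 P-Apex1KO mice lie above all WT mice at 10- and 14-dpf, while the groups overlap at 3- and 6-dpf.

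The 2 earlier days did not show this. At 3-dpf the log2 fold change of *Nqo1* was 0.45 (SE 0.14, adjusted p = 0.768, edgeR quasi-likelihood test), and at 6-dpf it was -0.34 (SE 0.18, adjusted p = 0.282, same test). The groups overlapped at both days. Same-numbered mice deviated from their group means with r of 0.144 to 0.546 at 3-dpf, but unlike-numbered mice reached 0.361. A pairing by number was thus not shown. In all 4 same-numbered pairs *Nqo1* was higher in the library labelled P-Apex1KO. With the number as a block in place of sex it did not pass either (log2 fold change 0.34, adjusted p = 0.544, same test). The change of the genotype difference from 3- to 6-dpf was -0.68 (SE 0.24, adjusted p = 0.228, edgeR quasi-likelihood interaction test), which did not pass. Between 10- and 14-dpf the genotype difference of *Nqo1* changed by 0.13 (SE 0.24), given with no test since it holds the 10-dpf difference.

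At 14-dpf 5 of the 10 members were higher in P-Apex1KO callus and none was lower, while 4.28% of 20228 genes tested were called higher and 7.04% lower. The 5 were *Nqo1*, *Gclc*, *Gclm*, *Hmox1* and *Slc7a11*. Both subunits of the enzyme that sets the rate of glutathione synthesis and the cystine importer thus rose, together with the quinone reductase and haem oxygenase. The median log2 fold change over the 10 members was 0.47, against 0.04 over all genes tested. Without the sex term it was 0.22, against 0.02. In that model again 5 members passed, 4 of them higher and 1 lower, since *Hmox1* was lost and *Txnrd1* came in. These are measurements of whole callus, in which fewer cells of a type and less RNA per cell cannot be told apart.

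*Gclc* stood at 38.4, 37.7, 39 and 38.5 CPM in the WT mice and at 63.9, 59.3 and 57.8 CPM in the P-Apex1KO mice at 14-dpf. The WT mice lay close together, and every P-Apex1KO mouse was above them. The log2 fold change was 0.68 (SE 0.11, adjusted p = 0.00996, edgeR quasi-likelihood test). *Gclm* stood at 63.6, 57.6, 67.9 and 61.1 CPM against 114, 89.2 and 93.0 CPM, again with no overlap, and rose by 0.66 (SE 0.16, adjusted p = 0.0373, same test). Without the sex term the log2 fold changes of *Gclc* and *Gclm* were 0.69 and 0.70.

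*Slc7a11* was 5.55, 7.10, 7.43 and 8.0 CPM in WT and 12.0, 13.9 and 8.75 CPM in P-Apex1KO callus at 14-dpf. The groups did not overlap, although the third P-Apex1KO mouse was close to the highest WT mouse. The log2 fold change was 1.08 (SE 0.28, adjusted p = 0.0466, edgeR quasi-likelihood test) and 0.76 without the sex term (adjusted p = 0.0142). *Hmox1* was 62.5 CPM in the WT female, 93.3, 79.1 and 91.9 CPM in the WT males and 105, 104.1 and 87.0 CPM in the P-Apex1KO females. The P-Apex1KO mice thus overlapped the WT males and lay above the WT female, and the log2 fold change of 0.68 (SE 0.15, adjusted p = 0.0275, edgeR quasi-likelihood test) fell to 0.31 (adjusted p = 0.113) when sex was left out.

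Leaving out single mice at 14-dpf changed some of these calls. With sex in the model and only females among the P-Apex1KO mice, the WT males bear on the spread but hardly on the genotype difference of any gene. Without WT replicate 2, 3 or 4 *Gclm* stayed at 0.66 and *Slc7a11* at 1.08. A call kept or lost in these fits cannot show whether the difference depends on that mouse. *Nqo1* and *Gclc* passed in all 6 fits that left out 1 mouse. *Gclm* did not pass without WT replicate 2, 3 or 4 (highest adjusted p 0.0877, edgeR quasi-likelihood test), *Hmox1* not without WT replicate 2 or 4 (0.0693) and *Slc7a11* not without P-Apex1KO replicate 1 or WT replicate 2, 3 or 4 (0.0965). The number of members called was 3 without WT replicate 3 and 2 without WT replicate 2 or 4. Without WT replicate 1, the only WT female, no fit with sex could be made.

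The other 5 members did not pass at 14-dpf. *Txnrd1* pointed down, with 137, 159, 141 and 159 CPM in WT and 104.1, 85.4 and 101 CPM in P-Apex1KO callus. The groups did not overlap, and the log2 fold change was -0.48 (SE 0.13, adjusted p = 0.0588, edgeR quasi-likelihood test), and -0.59 (SE 0.09, adjusted p = 0.00168) without the sex term. *Keap1*, the inhibitor, was 47.7, 49.2, 46.0 and 52.2 CPM against 32.1, 39.6 and 43 CPM. It did not overlap either, with a log2 fold change of -0.29 (SE 0.18, adjusted p = 0.333, same test), and -0.31 without the sex term (adjusted p = 0.0618). *Nfe2l2* (0.22), *Txn1* (0.28) and *Srxn1* (-0.05) overlapped between the groups, with adjusted p between 0.195 and 0.92, and were at 0.13, 0.01 and -0.19 without the sex term. In all, 6 members had groups that did not overlap at 14-dpf, as did 42% of all genes tested.

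**Figure D2:**
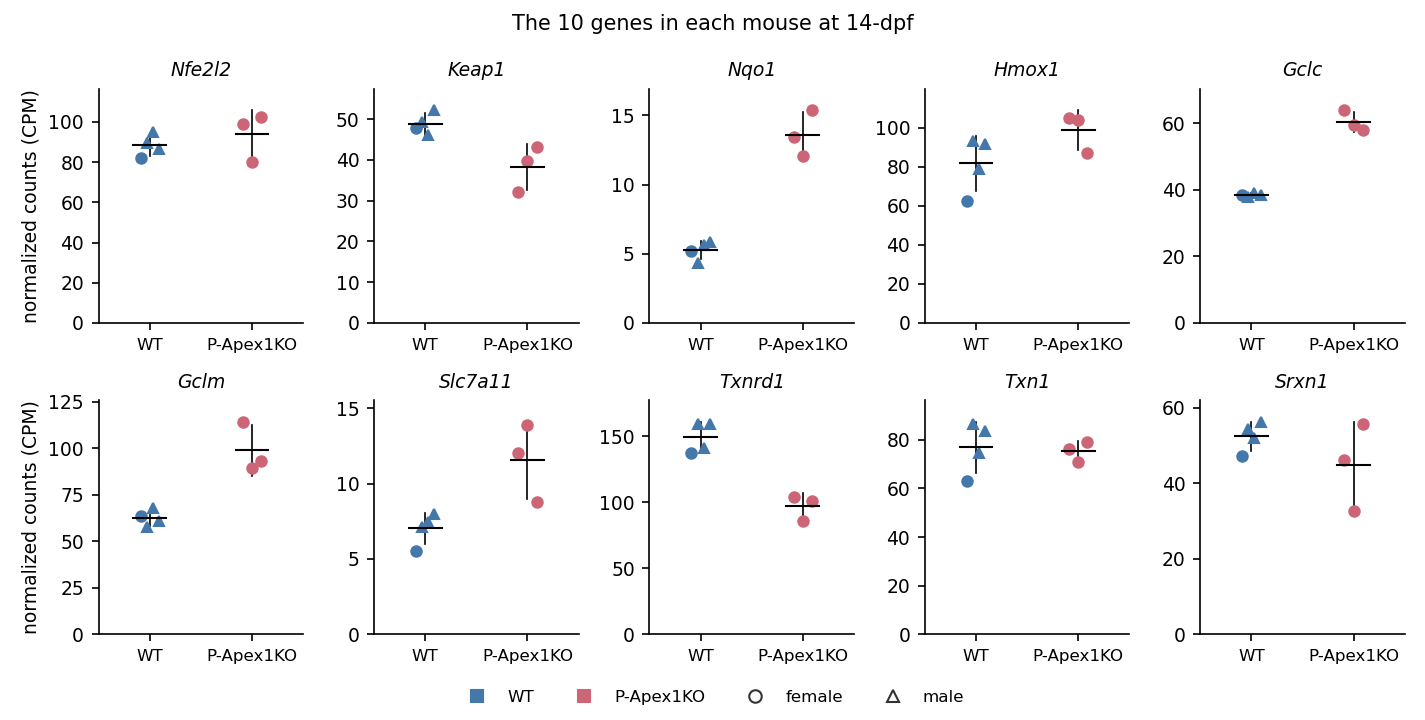
CPM of the 10 members in the 4 WT and 3 P-Apex1KO mice at 14-dpf, 1 panel for each gene with its own linear axis from 0, 1 point for each mouse, lines for group mean and SD and marker shape for sex. *Gclc*, *Gclm*, *Nqo1* and *Slc7a11* lie higher and *Txnrd1* and *Keap1* lower in all P-Apex1KO mice, while the single WT female has the lowest *Hmox1*.

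Lists of cell type markers also differed at 14-dpf, and their part in the members' differences was not tested. The summed level of 12 macrophage genes was 1794 to 1884 CPM in WT and 2284 to 2591 CPM in P-Apex1KO callus, with 8 of the 12 called higher and 2 lower (10 and 2 without the sex term). That of 9 neutrophil genes was 1279 to 1965 against 2692 to 3412 CPM, with 7 called higher (9 without the sex term), and that of 9 erythroid genes 841 to 935 against 1896 to 2259 CPM, with 5 called higher (8 of 8 tested without the sex term). The 9 lymphocyte genes summed to 79.2 to 102 against 158 to 543 CPM, with 1 called higher (9 without the sex term). The 7 osteoblast genes summed to 70559 to 96280 against 17506 to 19027 CPM, with 4 called lower (5 without the sex term), and the 6 osteoclast genes to 12059 to 13695 against 1587 to 3090 CPM, all 6 called lower in both models. The 5 endothelial genes summed to 720.2 to 787 against 471 to 558 CPM, with 2 called lower (4 without the sex term). The summed level of 8 chondrocyte genes overlapped, at 3086 to 7938 against 5230 to 6264 CPM, although 7 were called higher and 1 lower with the sex term, against 1 and 1 without it. The WT female, on which the fit with sex rested, had the lowest of these sums (3086 CPM, other WT mice 6041 to 7938). Its sum of 8 skeletal muscle genes was 4819 CPM, against 1300 to 1573 in the other WT mice and 3330 to 11840 in P-Apex1KO mice. No marker of these lists was at 0 counts in any mouse of 14-dpf.

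At 3-dpf no member was called, and neither was any of the 19866 genes tested in either direction (0% higher and 0% lower), although 1216 genes had an unadjusted p under 0.05, and DESeq2 called 85. The log2 fold changes of all 10 members were above 0 (*Txn1* at -0.01 with library sizes alone in place of TMM scaling), with a median of 0.21 against -0.0028 over all genes. *Hmox1* had the largest, with 456, 264, 246 and 356 CPM in WT and 1254, 1130.3, 268 and 509 CPM in the libraries labelled P-Apex1KO. A pair of P-Apex1KO males was well above all others, the P-Apex1KO female was within the WT range, and the log2 fold change of 0.85 (SE 0.37, adjusted p = 0.828, edgeR quasi-likelihood test) did not pass. *Keap1* was the only member whose groups did not overlap, at 51.0 to 57.4 CPM in WT and 57.9 to 62.7 CPM in P-Apex1KO libraries (log2 fold change 0.16), and 3.66% of all genes had no overlap. The summed level of 8 skeletal muscle genes was 3635 to 5219 CPM in WT and 5264 to 12855 CPM in P-Apex1KO libraries, and its part in these values was not tested. The library with the highest *Hmox1*, P-Apex1KO replicate 1, stood apart from the other 3 P-Apex1KO libraries in erythroid (143 CPM against 1451 to 2053), neutrophil (921 against 5354 to 8878), lymphocyte (16.7 against 53.4 to 149) and osteoclast markers (386 against 726 to 1077). Within the numbered pairs *Hmox1*, *Keap1*, *Nqo1*, *Srxn1* and *Txnrd1* were higher in all 4 libraries labelled P-Apex1KO. Their adjusted p was between 0.498 and 0.739 in the edgeR fit with the number as a block in place of sex.

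At 6-dpf none of the 10 members was called, while 5.31% of 20260 genes were called higher and 5.61% lower, and 5306 genes had an unadjusted p under 0.05. *Nfe2l2* came closest. It was 84.7, 68.1, 69.2, 80.5 and 77.3 CPM in WT and 91.0, 97.0 and 91.8 CPM in P-Apex1KO callus, without overlap, as for 20.6% of all genes, and its log2 fold change was 0.33 (SE 0.09, adjusted p = 0.055, edgeR quasi-likelihood test). It passed without the sex term (adjusted p = 0.0304) and without WT replicate 1 (adjusted p = 0.0323). *Slc7a11* was 5.16 to 8.61 CPM in WT and 8.20, 9.09 and 14.7 CPM in P-Apex1KO callus, with a log2 fold change of 0.69 (SE 0.24, adjusted p = 0.101, same test), and 1.09 without P-Apex1KO replicate 1 (adjusted p = 0.0458). The remaining 8 members lay between -0.34 and 0.30, and their groups overlapped. Macrophage markers summed to 1674 to 2136 CPM in WT and 2866 to 3271 CPM in P-Apex1KO callus, with 9 of 12 called higher, and chondrocyte markers to 32310 to 57680 against 2875 to 5081 CPM, with all 8 called lower. Skeletal muscle markers summed to 3216 to 5916 against 7552 to 17636.5 CPM, with 7 of 8 called higher. Of the adipocyte and lymphocyte markers, 5 of 7 and 4 of 9 were called higher (0 and 4 without the sex term). Of the osteoblast markers, 6 of 7 were called lower. Their part in the members' values was not tested.

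At 10-dpf, apart from *Nqo1*, none of the 9 members was called, beside 3.01% of 18910 genes called higher and 3.44% lower, and 4588 genes with an unadjusted p under 0.05. *Slc7a11* was 4.10, 3.84, 6.76 and 4.53 CPM in WT and 5.61, 8.71 and 9.75 CPM in P-Apex1KO callus. The lowest P-Apex1KO mouse fell below the highest WT mouse, and the log2 fold change was 0.64 (SE 0.17, adjusted p = 0.0656, edgeR quasi-likelihood test). *Txnrd1* was 131, 126, 111 and 111 CPM against 82.5, 102 and 101 CPM, without overlap, with a log2 fold change of -0.32 (SE 0.11, adjusted p = 0.114, same test). Of all genes, 19.3% had no overlap at this day. *Gclc* (0.17), *Gclm* (0.22) and *Hmox1* (0.11), which rose at 14-dpf, had adjusted p of 0.449 or more at 10-dpf. Adipocyte markers summed to 56.4 to 77.4 CPM in WT and 120 to 209 CPM in P-Apex1KO callus, with 5 of 7 called higher. Lymphocyte markers summed to 69.1 to 104 against 116 to 225 CPM, with 3 of 9 called higher, and neutrophil markers to 1242 to 2691 against 2692 to 5085 CPM, with 0 of 9 called. Endothelial markers summed to 594 to 699 against 461 to 534 CPM and hypertrophic chondrocyte markers to 17522 to 21163 against 9991 to 14675 CPM, each with 1 of 5 called lower. Macrophage markers summed to 1073 to 1826 against 1909 to 2375 CPM, with 6 of 12 called higher (1 without the sex term). Osteoclast markers summed to 3247 to 7506 against 1165 to 1927 CPM, with 5 of 6 called lower, and osteoblast markers to 41617 to 59790 against 17954 to 27257 CPM, with 5 of 7 called lower. Their part in the members' values was not tested.

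**Figure D3:**
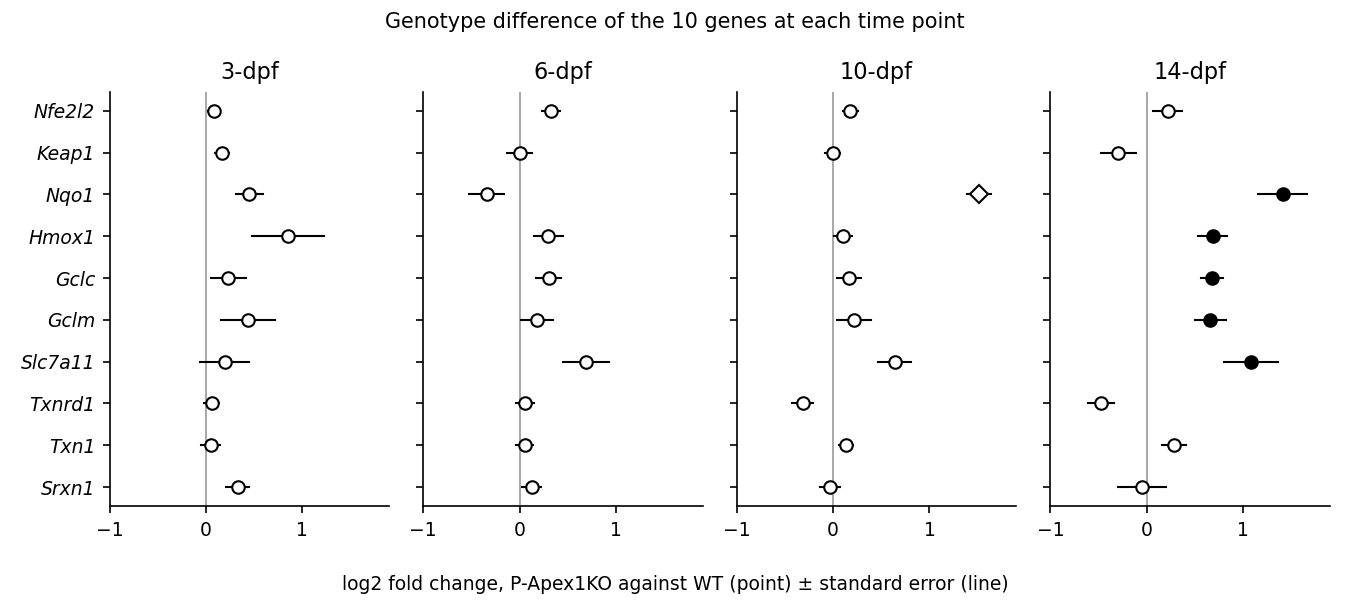
Log2 fold change of P-Apex1KO against WT for each of the 10 members at 3-, 6-, 10- and 14-dpf, with the standard error as a line and filled symbols for adjusted p under 0.05 (edgeR quasi-likelihood test); *Nqo1* at 10-dpf is drawn as an open diamond, a description. The 5 filled symbols are all at 14-dpf, and all 10 members lie above 0 at 3-dpf (*Txn1* at -0.01 with library sizes alone).

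Whether the genotype difference itself changed between days was tested within pairs of days. No member passed between 3- and 6-dpf, where 0.318% of 20468 genes had a difference that became more positive and 0.987% one that became more negative, with 2556 genes at an unadjusted p under 0.05. None of the 9 members besides *Nqo1* passed between 10- and 14-dpf, where the shares were 0.0406% and 0.396% of 19705 genes, with 2577 genes at an unadjusted p under 0.05. *Hmox1* came closest, with a change of 0.66 from 10- to 14-dpf (SE 0.15, adjusted p = 0.0969, edgeR quasi-likelihood interaction test). The change was 0.48 for *Gclc* (adjusted p = 0.217) and 0.49 for *Gclm* (adjusted p = 0.39, same test). A rise at 14-dpf that passed, beside a value at 10-dpf that did not, was therefore not shown to differ between these days.

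In WT mice the members changed between 3-dpf, taken around the fracture site, and 6-dpf, taken as whole callus, so a difference in dissection cannot be told apart from time. *Nqo1* rose by 1.26 (SE 0.16, adjusted p = 4.06e-05, edgeR quasi-likelihood test), and 5 members fell, while 15.4% of 20468 genes were called higher and 15.1% lower. *Slc7a11* fell by 1.38 on the log2 scale (SE 0.26, adjusted p = 0.00107, same test), from 18.7, 18.5, 14.5 and 21.8 CPM at 3-dpf to 7.07, 6.18, 7.64, 5.16 and 8.61 CPM at 6-dpf, with no overlap. *Hmox1* fell by 1.02 (adjusted p = 0.011, same test), from 246 to 456 CPM at 3-dpf to 131 to 182 CPM at 6-dpf. With the replicate number as a block in place of sex its adjusted p was 0.1 (same test), and 5 members were called in place of 6. *Txnrd1* fell by 0.52, *Txn1* by 0.50 and *Nfe2l2* by 0.45, with adjusted p of 0.000301 or less. *Nqo1* thus went against the direction of the other members called. In these mice the summed level of macrophage markers went from 3424 to 4375 CPM at 3-dpf to 1674 to 2136 CPM at 6-dpf, with 11 of 12 called lower, and all 8 chondrocyte markers were called higher. Their part in the members' changes was not tested.

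From 10- to 14-dpf 2 of the 9 members besides *Nqo1* fell in WT callus, beside 6.19% of 19705 genes called higher and 4.92% lower. *Hmox1* fell by 0.38 (SE 0.09, adjusted p = 0.0157, edgeR quasi-likelihood test) and *Txn1* by 0.25 (SE 0.07, adjusted p = 0.0409, same test). Neither was called without the sex term or without WT replicate 3 of 10-dpf, and *Txn1* was lost in 6 of 14 fits that left out 1 mouse (also WT replicate 1 or 2 of 10-dpf and WT replicate 1, 3 or 4 of 14-dpf, highest adjusted p 0.161). *Nqo1* had a log2 fold change of -0.80 (SE 0.15), given with no test since its 10-dpf mice served in the comparison for which it was chosen. Over time WT *Hmox1* was highest in group mean at 3-dpf and lowest at 14-dpf (331 ± 96.6, 152 ± 21.2, 97.2 ± 30 and 81.7 ± 14.3 CPM, SD, n = 4, 5, 4 and 4), and *Txn1* followed the same order (176 ± 20, 126 ± 12.4, 85.8 ± 8.16 and 77.0 ± 10.6 CPM). The step from 6- to 10-dpf was not tested, because the sample names change there and a change of batch cannot be told apart from time.

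**Figure D4:**
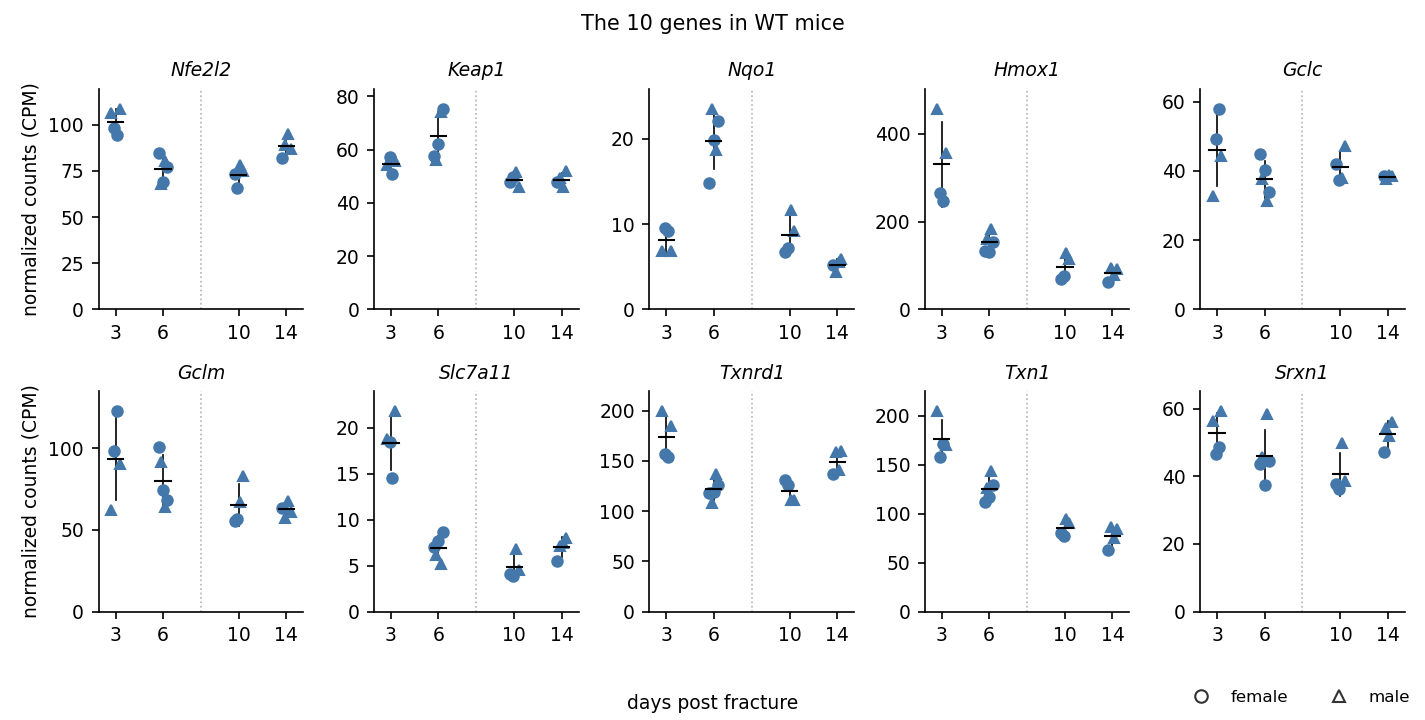
Level of the 10 members in WT callus as CPM against the day post fracture, 1 panel for each gene with its own linear axis from 0, with 1 point for each WT mouse, lines for group mean and SD, marker shape for sex and a dotted line between 6- and 10-dpf, which were not compared. *Nqo1* is highest at 6-dpf, while *Hmox1* and *Txn1* have their highest group mean at 3-dpf and their lowest at 14-dpf. These orders cross the dotted line and were not tested.

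Within groups, *Hmox1* differed between males and females. This comparison was chosen after the values had been seen, so the difference of *Hmox1* is a description. The adjusted p of the other members do not account for that choice. In all 7 groups that held both sexes, every male had more *Hmox1* than every female, for example 456 and 356 CPM in WT males against 264 and 246 CPM in WT females at 3-dpf, and 129 and 116 CPM against 68.6 and 75.0 CPM in WT mice at 10-dpf. In a model of the 8 groups and sex over 14 females and 16 males the male level was higher by 0.72 on the log2 scale (SE 0.13). Of the other 9 members, *Srxn1* was higher in males by 0.33 (SE 0.07, adjusted p = 0.0239, edgeR quasi-likelihood test), with all males above all females in 7 of 7 groups. *Txn1* was higher by 0.21 (SE 0.05, adjusted p = 0.0331, same test), with a higher male mean in 6 of 7 groups. For *Txn1* all males lay above all females in 4 groups and below them in 1. Within groups *Srxn1* and *Txn1* ran with *Hmox1* (r = 0.70 and 0.69). No member was called lower in males, and 0.373% of 20642 genes were called higher in males and 0.262% lower. *Nqo1* differed by 0.04 (SE 0.10, adjusted p = 0.904, same test) and *Gclc* by -0.15 (SE 0.08, adjusted p = 0.351, same test). In the mice of 3- and 6-dpf alone neither *Srxn1* (0.35, adjusted p = 0.214) nor *Txn1* (0.15, adjusted p = 0.591) passed, and in those of 10- and 14-dpf alone they gave 0.30 (adjusted p = 0.242) and 0.30 (adjusted p = 0.0722), by the same test. With 1 mouse left out *Srxn1* was lost in 4 of 30 fits (without P-Apex1KO replicate 1 or WT replicate 3 of 10-dpf, WT replicate 4 of 6-dpf or P-Apex1KO replicate 3 of 3-dpf, highest adjusted p 0.0916) and *Txn1* in 11 of 30, among them these 4 (0.106).

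**Figure D5:**
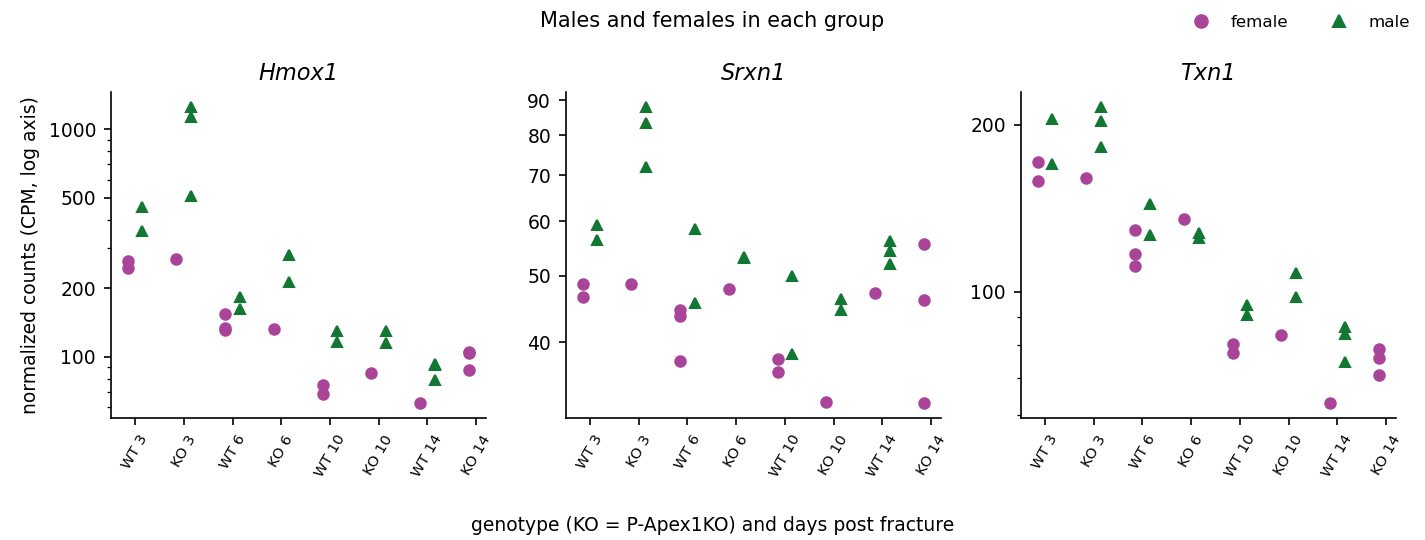
*Hmox1*, *Srxn1* and *Txn1* in CPM on a log axis for females and males of each of the 8 groups, with 1 point for each mouse. In each of the 7 groups with both sexes, all males lie above all females for *Hmox1* and *Srxn1*, and the eighth group, P-Apex1KO at 14-dpf, holds females only.

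After the mean of its own group was subtracted from each mouse, the genes most like *Nqo1* over the 30 mice were *Fibin*, *Tmem9* and *Anapc5* (Pearson r of log2 CPM 0.75, 0.75 and 0.74 among 13795 candidates). The mice share libraries and scaling, and these values carry no test. Among the members themselves, *Gclc* and *Gclm* were most alike (r = 0.87, Spearman's rho 0.78). *Txn1* with *Srxn1* (0.74) and *Hmox1* with *Srxn1* (0.70) came next, and these pairs also share the difference between sexes. Of the 45 pairs of members, 28 had r above 0, with a median of 0.15. *Keap1* ran against *Gclc* (-0.48) and *Gclm* (-0.46), but this was not particular to *Keap1*. *Gclc* also ran against *Txnrd1* (-0.47) and *Txn1* (-0.41), and *Gclm* against *Txnrd1* (-0.37).

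A further 62 genes of the pathway, in 7 lists, were counted in the same way. At 3-dpf none of the 57 tested was called, as was none of all genes. At 6-dpf 8 of 58 were higher and 2 lower, beside 5.31% and 5.61% of all genes. At 10-dpf 5 of 58 were higher and 1 lower, beside 3.01% and 3.44%, and at 14-dpf 6 of 57 and 1, beside 4.28% and 7.04%. Pooled over the lists, the median log2 fold change lay between 0.07 and 0.17 over the 4 days, against -0.0031 to 0.043 over all genes. Medians of single lists ran from -0.06 (NADPH genes) to 0.36 (superoxide and peroxide enzymes outside the NRF2 members), both at 6-dpf. Of the list genes called at all 3 later days, *Ephx1*, an epoxide hydrolase, had the larger change, whose group means in WT callus were 19.4 ± 3.44, 16.1 ± 3.17 and 13.7 ± 0.474 CPM at 6-, 10- and 14-dpf (SD, n = 5, 4 and 4) against 42.7 ± 7.70, 48.9 ± 4.44 and 52.5 ± 10.7 CPM (SD, n = 3 each) in P-Apex1KO callus. Its log2 fold changes were 1.20, 1.58 and 1.99 (adjusted p = 0.00296, 0.00347 and 0.00285, edgeR quasi-likelihood test). *Ephx1* did not overlap between the groups at any of these days. It passed in every fit that could be made with 1 mouse left out. At 14-dpf none could be made without the only WT female, and leaving out a WT male bore on the spread but hardly on the difference.

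*Mgst1*, a microsomal glutathione transferase, also rose at all 3 days, by 0.62, 0.80 and 0.82 (adjusted p = 0.00667, 0.0329 and 0.0265, edgeR quasi-likelihood test), but it was not called at 10-dpf without the sex term (adjusted p = 0.105), without P-Apex1KO replicate 1 (0.50, adjusted p = 0.194) or without WT replicate 1, 2 or 4 of that day, nor at 14-dpf without WT replicate 2, 3 or 4 (highest adjusted p 0.06). *Nfe2l3*, which encodes a relative of NRF2, rose by 2.43 at 10-dpf (adjusted p = 0.00629, same test) from a mean of 1.01 ± 0.325 CPM (SD, n = 4) to 5.49 ± 0.527 CPM (SD, n = 3), and at 14-dpf from 0.439 ± 0.207 CPM (SD, n = 4) to 3.42 ± 1.15 CPM (SD, n = 3). The log2 fold change at 14-dpf was 4.12 with the sex term (adjusted p = 0.0095, same test) and 2.97 without it, and without P-Apex1KO replicate 1 of 10-dpf the adjusted p at that day was 0.0603. *Mafk*, a small MAF partner of NRF2, rose by 0.70 and the glutathione peroxidase *Gpx1* by 0.60 at 14-dpf (adjusted p = 0.0331 and 0.021, same test). *Fech*, the last enzyme of haem synthesis, rose by 0.72 at that day (adjusted p = 0.00826, same test). The erythroid markers were higher in the same mice, as given above, and their part in these rises was not tested. Without the sex term *Ephx1*, *Mgst1*, *Mafk*, *Gpx1* and *Fech* at 14-dpf were at 1.97, 0.92, 0.40, 0.66 and 0.90, with adjusted p of 0.0401 or less.

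At 6-dpf the other genes called higher were *Bach1*, a repressor that competes with NRF2 for its sites (0.34), *Gpx4*, *Fth1*, *Cat*, *Sod2* and *Txnip* (0.32, 0.51, 0.32, 0.41 and 0.58). *Cat* was not called without the sex term (adjusted p = 0.163), and *Txnip* in 5 of 8 fits that left out 1 mouse (WT replicate 2, 3 or 4, P-Apex1KO replicate 1 or 2, highest adjusted p 0.124). At 10-dpf they were *G6pdx* and *Taldo1* of the pentose phosphate pathway (0.44 and 0.35), which were not called without the sex term (adjusted p = 0.102 and 0.097). Genes that fell were few. *Prdx4*, the peroxiredoxin of the endoplasmic reticulum, fell by 0.70 at 6-dpf (adjusted p = 0.002, edgeR quasi-likelihood test) and by 0.77 at 14-dpf (adjusted p = 0.0188, same test), *Ugdh*, which makes the UDP-glucuronate used for glycosaminoglycans, by 1.12 at 6-dpf (adjusted p = 0.00235, same test), and *Cbr3*, a carbonyl reductase, by 0.70 at 10-dpf (adjusted p = 0.0359, same test). *Cbr3* was lost without the sex term (adjusted p = 0.058) and without WT replicate 1 or 2 or P-Apex1KO replicate 1 or 3 (highest adjusted p 0.219), and *Prdx4* at 14-dpf, at -0.93 without the sex term, was lost without WT replicate 2 or 4 (0.0534). *Ugdh* was the only gene of these lists whose genotype difference changed between days, by -1.06 from 3- to 6-dpf (adjusted p = 0.0135, interaction test). The chondrocyte markers also differed at 6-dpf, and their part in the *Ugdh* change was not tested. In WT callus 3 of 58 list genes rose and 16 fell from 3- to 6-dpf, beside 15.4% and 15.1% of all genes, and from 10- to 14-dpf 0 rose and 2 fell, beside 6.19% and 4.92%.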

How the data were processed

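The authors depleted rRNA from total callus RNA, made stranded libraries, aligned reads with STAR 2.7.0d to mm39 (bcl2fastq 2.20 before, per the submitters' processing notes) and counted them per gene with featureCounts, and deposited raw counts per gene and mouse. Genotype, day and sex came from the labels. From these counts each day was fitted in edgeR 4.0.16 (R 4.3.3): filterByExpr, TMM, genotype and sex, robust quasi-likelihood F tests, Benjamini-Hochberg adjustment over all genes tested, threshold 0.05. Standard errors are the log2 fold change over the square root of F. Models of 2 days with 4 groups gave changes over time and of the genotype difference. CPM were scaled by TMM over all 30 mice, with a prior count of 2 for log2 CPM. Symbols came from GENCODE M39 (54749 of 55416 IDs), on the same build as the files, which also gave exon lengths and windows.

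The members and lists were chosen with earlier results of these data known. All members were named, and of the lists the largest changes past the threshold, beside some further genes named after their values were seen. Libraries are separate mice. Deviations of same-numbered mice from their group means had r of 0.546, 0.163, 0.226 and 0.144 for the 4 pairs at 3-dpf. Unlike-numbered WT and P-Apex1KO mice of that day ran from -0.378 to 0.361, so the numbers were not shown to pair the mice. The replicate block took the place of the sex term in all fits but those by sex, so a change under it may also come from leaving out sex. With the block 1 gene was called at 3-dpf in place of 0, and no member. At the other days the numbers were not shown to pair the mice either. DESeq2 1.42.0 and other settings were alternatives. The steps were tested on simulated counts. No protein sequence was used here.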

Additional observations from a re-analysis of the deposited data

Results flagged for a closer look

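Among 55 groups of 4 or 5 mice examined for a value far from the rest, over the members and *Apex1*, 1 was past Dixon's critical value, where chance gives about 1 in 20. It was *Srxn1* in WT callus at 10-dpf, in which replicate 3, a male, stood at 50.0 CPM and the next mouse at 38.5 CPM. Without this mouse the log2 fold change of *Srxn1* at 10-dpf was 0.05 in place of -0.03. The genotype difference of *Ugdh* changed by -1.06 on the log2 scale from 3- to 6-dpf (adjusted p = 0.0135, edgeR quasi-likelihood interaction test), as given in the report.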

How the results depend on the processing

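Over 596 values recomputed with all mice, 538 kept their direction and side of the threshold, as did 520 of 595 with 1 mouse left out. The number of members called at 14-dpf was 4 to 7 over the alternatives and 2 to 6 with 1 mouse left out. Leaving out a WT male at that day bore on the spread but hardly on the differences. The number at 6-dpf, 0, was 2 with DESeq2 (*Nfe2l2*, *Slc7a11*), 1 without the sex term, 3 with library sizes alone, 1 with at least 10 counts in every mouse and 1 with all 30 mice in 1 model (0 to 1 with 1 mouse left out). At 10-dpf, without *Nqo1*, it was 1 with DESeq2, library sizes alone or no filter (*Slc7a11*, higher) and 1 with all 30 mice (*Txnrd1*, lower). In WT callus from 10- to 14-dpf it was, without *Nqo1*, 0 without the sex term, 0 with the replicate block and 1 with no filter in place of 2 (0 to 3 with 1 mouse left out). For the change of the genotype difference it was 1 from 3- to 6-dpf with library sizes alone, and 1 from 10- to 14-dpf with DESeq2 or no filter, in place of 0. By sex, without *Hmox1*, 2 members became 0 in the mice of 3- and 6-dpf, 0 in those of 10- and 14-dpf and 0 in WT mice (0 to 2 with 1 mouse left out). The causes were not tested.

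All genes called moved from 0 at 3-dpf to 85 (DESeq2), 4 (no filter), 1 (replicate block) and 38 (all 30 mice), and to 0 to 10 with 1 mouse left out. From 2212 at 6-dpf they moved to 3594 (library sizes alone) and 677 (replicate block), and to 890 to 2359. From 1221 at 10-dpf they moved to 2187 (DESeq2) and 750 (no sex term), and to 42 (without P-Apex1KO replicate 1) to 1827. From 2289 at 14-dpf they moved to 6849 (no sex term) and 6188 (all 30 mice), and to 1206 (without WT replicate 2) to 3773. In WT callus from 10- to 14-dpf they moved from 2190 to between 1162 and 2760 with 1 mouse left out. Changes of the genotype difference from 3- to 6-dpf went from 267 to 718 (DESeq2), 433 (library sizes alone) and 90 (replicate block), and to 104 to 450, and from 10- to 14-dpf from 86 to 465 (DESeq2), 8 (library sizes alone), 55 (20 most abundant genes left out) and 207 (no filter), and to 2 to 206. Library sizes alone shifted the median over all genes, on the log2 scale, to 0.20 at 6-dpf, 0.31 at 14-dpf, -0.27 from 3- to 6-dpf in WT callus and 0.25 and 0.16 for the 2 changes of the genotype difference. Higher calls were then 2780 of 3594 at 6-dpf (otherwise 1075 of 2212), 849 of 1313 at 10-dpf (570 of 1221), 1878 of 2644 at 14-dpf (865 of 2289), 1902 of 8886 (3159 of 6244) and 788 of 2029 (1220 of 2190) over time in WT callus, 291 of 433 (65 of 267) and 2 of 8 (8 of 86) for the changes of the genotype difference.

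Values that changed sign were small and not called. *Txn1* at 3-dpf was -0.01 with library sizes alone. *Keap1* at 6-dpf was -0.01 with DESeq2, -0.01 with its size factors, 0.00 without a filter and -0.02 with all 30 mice, where *Txn1* was 0.00. At 10-dpf *Keap1* was 0.00 without the sex term, 0.08 with library sizes alone and 0.00 with at least 10 counts, and *Srxn1* 0.03 without the sex term, 0.05 with library sizes alone and 0.01 with the replicate block. At 14-dpf *Srxn1* was 0.21 with library sizes alone and 0.02 with all 30 mice. With 1 mouse left out, ranges that crossed 0 were -0.01 to 0.50 for *Slc7a11* and -0.04 to 0.10 for *Txn1* at 3-dpf, -0.10 to 0.08 for *Keap1*, -0.07 to 0.11 for *Txn1* and -0.03 to 0.11 for *Txnrd1* at 6-dpf, -0.02 to 0.29 for *Gclc*, -0.15 to 0.38 for *Gclm*, -0.01 to 0.18 for *Hmox1*, -0.05 to 0.04 for *Keap1* and -0.14 to 0.05 for *Srxn1* at 10-dpf, and -0.24 to 0.13 for *Srxn1* at 14-dpf.

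With the replicate block in place of sex, *Apex1* at 10-dpf was not called (-0.50, adjusted p = 0.14, edgeR). With the block at 14-dpf *Hmox1* (0.37, adjusted p = 0.127, edgeR) and *Slc7a11* (0.80, adjusted p = 0.0585, edgeR) were not called and *Txnrd1* was (-0.57, adjusted p = 0.0328, edgeR). With neither sex nor block *Hmox1* was at 0.31 (adjusted p = 0.113, edgeR) and *Txnrd1* at -0.59 (adjusted p = 0.00168, edgeR), while *Slc7a11* passed. Of 13 same-numbered pairs of mice, 6 had r over 0.1 (-0.396 to 0.546). No fit with sex could be made without WT replicate 1 of 14-dpf. The number of mice, 3 to 5 in a group, limits the precision, and at 14-dpf sex and genotype are nearly the same split. Callus cells were not separated, sequence matches were not tested for binding, and protein levels and NRF2 activity were not measured here. *Apex1* did not bear out the labels at 3-dpf.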
